A study of Mus musculus with 12 samples.

Results

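Gene-desert narrow peaks are stretches of open chromatin that lie far from any protein-coding gene. They were taken by position and width alone. A peak was kept if it lay on an autosome, if its deposited length was under 1500 bases, and if its centre was more than 50 kb from the span of every protein-coding gene of the mouse assembly GRCm38 (mm10). The rule kept 22319 of the 222105 peaks in the table, and no accessibility value entered it. ATAC-seq, which inserts adapters into open DNA with a transposase, had been run on naive mouse CD4+ T cells (spleen and draining lymph node) after culture towards the homeostatic Th17 state. The 4 groups of 3 libraries were WT (C57/B6) cells without (control) or with the synthetic glucocorticoid dexamethasone (Dex), and GR cKO (C57/B6) cells, in which the glucocorticoid receptor is conditionally deleted, without or with Dex. Treatment lasted 2 days and each library came from 6000 sorted cells. The sources used here do not name the Cre line behind the deletion or say that a group's 3 libraries came from separate animals. The p-values therefore reflect the spread among libraries, which may be technical.

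Distal enhancers are short stretches of DNA where transcription factors displace nucleosomes, and they can act on promoters over long distances. Gene deserts around regulators of lymphocyte identity are known to hold many of them. The glucocorticoid receptor is a ligand-activated transcription factor that binds mostly at such distal sites, often at a palindromic response element, and opens or closes the chromatin there.

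The word desert holds only for protein-coding genes. Of the members, 5453 (24.4%) had their centre inside the span of an annotated long non-coding RNA, against 10.7% of all peaks, and 16220 (72.7%) lay in no annotated gene at all. A further 426 lay inside the antigen receptor loci, whose gene segments carry their own annotation class: 219 in Igh, 148 in Tcra, 41 in Tcrb, 13 in Igk, 4 in Tcrg and 1 in Igl. All 8 T cell marker genes and all 6 Th17 marker genes tested held a peak over their span, with the strongest peak of each at 11.5 to 115 CPM (counts per 1000000 in a library) for T cell genes and 4.19 to 65.6 for Th17 genes. Among defining genes of other cells, Ms4a1 (B cells), Cd8b1 (CD8 T cells), Ncr1 (NK cells) and Hba-a1 (red cells) held no peak. Peaks stood in the myeloid gene Spi1 (16.5 CPM), the erythroid gene Klf1 (21.6) and the stromal gene Col1a1 (11.6). Nr3c1, which encodes the receptor, had 18 tested peaks over its span, of which 0 were called between genotypes by edgeR. Their summed level ran from 97.1 to 124 CPM in WT libraries and from 92.0 to 116 in cKO libraries, and since no source used here places the deleted part, they check neither the labels nor the deletion. Libraries held 12988437 to 25081591 counts in peaks. The share of counts taken by the most accessible 10% of peaks differed between groups, with WT means of 61.2% in control and 62.6% with Dex and cKO means of 58.9% and 60.3%, so results on levels are given beside it.

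The genome sequence under the peaks was not used here, but 354 members (1.59%) overlapped the start of a long non-coding RNA for which RefSeq gives the promoter window on GRCm38.p6, from 250 bases before the start to 50 after it. There were 396 such windows, of 347 genes. The first 4 windows below are those whose member rose with Dex in WT cells, and the last pair belongs to the members with the highest signal over any such window. Capitals mark matches on either strand to the letters GNACA and TGTNC with any 3 bases between them (a relaxed glucocorticoid response palindrome), AGAACA (1 arm of that palindrome), TGANTCA (an AP-1 site), AGGTCA (a core bound by ROR factors) and TGTGGT (a RUNX core). Positions are counted from 1 at the 5′ end of each printed window.

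Gm45968: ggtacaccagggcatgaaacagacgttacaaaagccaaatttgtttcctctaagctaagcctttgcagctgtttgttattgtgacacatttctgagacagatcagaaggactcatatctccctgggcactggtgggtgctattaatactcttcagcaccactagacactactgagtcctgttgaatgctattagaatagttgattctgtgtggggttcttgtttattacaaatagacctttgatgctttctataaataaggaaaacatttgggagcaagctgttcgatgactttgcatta
Gm30149: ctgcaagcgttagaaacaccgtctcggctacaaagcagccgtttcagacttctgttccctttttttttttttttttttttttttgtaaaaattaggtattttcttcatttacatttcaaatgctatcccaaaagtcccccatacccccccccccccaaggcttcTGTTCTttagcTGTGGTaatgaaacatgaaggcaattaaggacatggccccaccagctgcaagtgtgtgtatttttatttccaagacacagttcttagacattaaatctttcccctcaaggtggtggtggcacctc
Gm6093: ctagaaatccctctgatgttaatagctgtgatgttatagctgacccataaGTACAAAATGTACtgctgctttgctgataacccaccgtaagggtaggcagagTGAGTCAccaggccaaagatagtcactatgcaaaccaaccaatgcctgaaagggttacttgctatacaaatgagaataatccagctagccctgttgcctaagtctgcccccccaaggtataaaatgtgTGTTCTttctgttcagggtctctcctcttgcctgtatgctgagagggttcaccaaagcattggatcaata
C330002G04Rik: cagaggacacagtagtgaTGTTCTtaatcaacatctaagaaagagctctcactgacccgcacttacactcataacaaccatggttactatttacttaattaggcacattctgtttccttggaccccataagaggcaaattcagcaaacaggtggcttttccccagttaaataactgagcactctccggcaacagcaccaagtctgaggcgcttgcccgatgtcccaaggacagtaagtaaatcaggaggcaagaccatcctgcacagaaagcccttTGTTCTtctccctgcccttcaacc
Gm36486: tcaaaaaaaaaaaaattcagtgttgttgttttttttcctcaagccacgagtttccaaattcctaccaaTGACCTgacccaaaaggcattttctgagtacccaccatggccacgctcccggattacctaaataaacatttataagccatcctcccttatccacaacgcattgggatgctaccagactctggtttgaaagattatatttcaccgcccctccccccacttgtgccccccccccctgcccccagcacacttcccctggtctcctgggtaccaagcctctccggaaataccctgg
Gm41331: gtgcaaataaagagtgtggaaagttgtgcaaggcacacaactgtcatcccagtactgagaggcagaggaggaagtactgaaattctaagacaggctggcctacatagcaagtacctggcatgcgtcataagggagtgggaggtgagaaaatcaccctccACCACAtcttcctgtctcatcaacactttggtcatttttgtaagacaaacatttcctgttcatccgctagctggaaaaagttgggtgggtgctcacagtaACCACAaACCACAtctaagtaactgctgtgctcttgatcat

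Gm45968 lies at chr16:55582408-55582707 on the minus strand in the desert beside Nfkbiz, and its first 223 printed bases fall in the member chr16:55582485-55583439. None of the searched motifs other than the ETS core GGAA was present in that window. Gm30149 lies at chr7:73608691-73608990 on the minus strand near Chd2, and its first 79 bases fall in the member chr7:73608912-73609281. Gm6093 lies at chr13:33569268-33569567 on the minus strand in the desert between Serpinb9g and Serpinb6d. It holds the relaxed palindrome at positions 51 to 63, an AP-1 site at 103 to 109 and a single arm at 231 to 236, all within its member chr13:33569274-33569793. C330002G04Rik lies at chr19:23058043-23058342 on the minus strand in the desert beside Klf9, and its last 63 bases fall in the member chr19:23057347-23058105 with a single arm at 277 to 282. Gm36486 (chr17:29437530-29437829, minus strand, between Fgd2 and Pim1) and Gm41331 (chr15:60141576-60141875, plus strand) had members at 64.5 and 63.8 CPM.

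These matches are descriptions of letters and do not show binding. The relaxed palindrome was found in 6 of the 396 windows that members overlap (1.52%) and in 156 of all 32585 promoter windows (0.479%). A single arm was found in 25% and 19%, the AP-1 site in 17.2% and 7.85%, the ROR core in 19.4% and 16.2%, the RUNX core in 26.0% and 16.6%, and GGAA in 97.7% and 96.0%. Windows of 1 gene can overlap one another, and the arm lies within some palindromes, so the counts are not independent. The 2 sets are also unlike. Member windows lie under peaks and all belong to long non-coding RNA genes, while the full set was not limited in that way. Every motif searched, GGAA included, was more frequent in the member windows, and the differences were not tested.

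Most members were narrow and weak. The median length was 308 bases (348 for all peaks), and the median distance from the centre to the nearest protein-coding gene was 107 kb, with the farthest at 2042 kb. After the filter on low counts, 19977 members were tested and 2342 were not. The median level of the tested members was 1.08 CPM, against 1.13 in narrow peaks deep inside protein-coding genes (more than 10 kb from both ends of the gene) and 26.4 in the 361 desert peaks of 1500 bases or more. A level over 10 CPM was reached by 1373 tested members (6.87%), against 12.3% of all tested peaks. The median biological coefficient of variation was 27% for members and 25.0% for all tested peaks. This is the spread between libraries fitted as a trend over the level of a peak, not the spread observed at each member.

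The distance and width limits cut through a continuous range. Just inside the distance limit, at 50 to 55 kb, tested peaks had a median of 1.16 CPM and 18 of 1450 were called for Dex in WT, and just outside it, at 45 to 50 kb, the median was 1.08 CPM and 10 of 1631 were called. Just inside the width limit, from 1400 to under 1500 bases, the median was 22.3 CPM and 6 of 102 were called, and just outside it, from 1500 to under 1600 bases, the median was 17.0 CPM and 2 of 66 were called.

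Members were spread very unevenly over the deserts. Between neighbouring protein-coding genes on the autosomes there were 2495 gaps wide enough to hold a member, of which 1596 held at least 1 and 899 held none. Over the 863.5 Mb that the rule allows, the density was 25.8 members per Mb, but the 250 richest deserts held 61.6% of all members. The longest gap without a member had 4411 kb of allowed sequence. Among the 1393 deserts with at least 100 kb of allowed sequence, the median density was 7.23 per Mb, with 10% of deserts above 140.

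The richest desert lay between Myc, a driver of growth and proliferation, and Gsdmc, with 261 members and 1130 CPM in sum. It was followed by the deserts of Id2 (an inhibitor of E proteins; 213 members), of Cd83 and Jarid2 (206) and of the Igh locus (189). The deserts beside Zmiz1 (163), within Tcra (148), beside Trib2 (142) and beside Bcl11b, a factor that maintains T cell commitment (142), came next, with the desert of Gadd45g and Diras2 (134) behind them. Foxo1, a factor of naive and memory T cell upkeep, flanked a desert with 132 members, and Satb1, a chromatin organiser of T cells, flanked one with 130. Among the 12 deserts with the highest summed signal, the one with the most signal per Mb was that between Smim20 and Rbpj, the DNA-binding effector of Notch signalling, with 77 members and 461 CPM in 177 kb of allowed sequence.

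Deserts were then grouped by listed genes at either end. A flanking gene need not be the gene on which a peak acts. The 15 deserts of at least 100 kb beside T cell identity factors had a median of 68.2 members per Mb, and 15 of 15 exceeded the overall median. The 7 beside Th17 genes had a median of 84.6, and 6 exceeded it: the desert of Rora, which encodes a receptor of the Th17 program, held 1 member at a density of 1.80 per Mb. The medians were 155 for 11 deserts beside growth and activation genes, 249 for 7 beside glucocorticoid receptor target genes and 127 for 4 beside trafficking genes.

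Lists from other lineages split. The 24 deserts beside developmental factors of other tissues had a median of 1.68 members per Mb, and 6 of 24 exceeded the overall median. The 3 beside B cell and myeloid genes had densities from 24.2, beside the B cell factor Ebf1, to 456, beside the myeloid factor Cebpb. The desert between Irf8 and Foxf1, with 382 members per Mb, belongs to the growth, the B cell and myeloid, and the developmental lists. Densities were not tested, because the deserts of a list were chosen with earlier results of these data known.

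**Figure D1:**
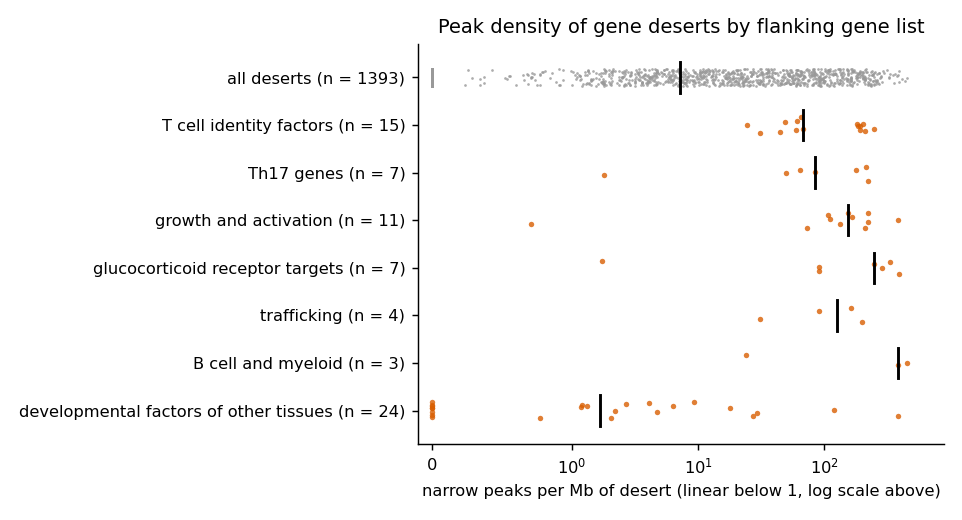
Density of gene-desert narrow peaks (members per Mb of allowed sequence, linear below 1 and logarithmic above) in each desert with at least 100 kb of allowed sequence, 1 point per desert, grouped by lists of flanking genes, with the median as a black bar. Deserts beside T cell identity factors sit at 24.5 to 248, all above the overall median of 7.23, and those beside developmental factors of other tissues have a median of 1.68.

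The most accessible members were open to a similar degree in all 4 groups. The strongest, chr12:73841523-73842997, lay between Prkch and Hif1a, 59.1 kb from Hif1a, the gene of the hypoxia-inducible factor that supports the Th17 program. It measured 115, 120.3 and 100.4 CPM in WT control and 139, 142 and 116 with Dex. In cKO cells it measured 101, 116 and 97.2 CPM in control and 112, 116 and 100.3 with Dex. The WT Dex values reached the highest level, but the groups overlapped. Next came members in the deserts of Ets1 (chr9:33060232-33061613, 87.3 CPM on average), a factor needed in T cell development, of Foxo1 (chr3:52790772-52791586, 86 CPM) and of Spef2 and Prlr (chr15:9869933-9871354, 83.8 CPM). The 10 strongest members included 0 called for Dex or genotype in any comparison, and their log2 change with Dex in WT ran from -0.09 beside Rbpj to 0.25 beside Hif1a.

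The first comparison asked which deserts respond to dexamethasone in cells that have the receptor. In WT cells, 145 of the 19977 tested members (0.726%) were called at an adjusted p under 0.05 by the quasi-likelihood test of edgeR, adjusted over all 202587 tested peaks, of which 0.534% were called. They rose more often than they fell: 118 were higher with Dex (0.42% of all tested peaks were called higher) and 27 lower (0.114%). Of the 118, 65 rose at least 2-fold, and their median log2 change was 1.07. The 3 Dex libraries lay above the 3 controls at all 118 members that rose and below them at 26 of the 27 that fell. These members were picked by that same comparison, so the separation is no further support. It was not counted over all tested peaks. The median log2 change over all tested members was -0.02.

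Calls became more frequent with signal. Among members under 1 CPM, 0.085% were called (0.0499% of all tested peaks of that level), between 1 and 3 CPM 0.585% (0.310%), between 3 and 10 CPM 1.59% (1.21%) and from 10 CPM upwards 3.71% (1.80%). By distance, 65 called members lay 50 to 100 kb from a gene, 50 at 100 to 200 kb, 21 at 200 to 500 kb and 9 beyond 500 kb, or 0.705%, 0.791%, 0.573% and 1.17% of those tested. The called members that rose had a median length of 670 bases and a median level of 3.90 CPM in WT control.

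The balance between higher and lower calls moved with the scaling. With total counts in place of TMM factors the calls were 128 higher and 84 lower, and with loess offsets 166 and 91. With the share of the most accessible peaks as a covariate they were 126 and 129. The calls over all tested peaks shifted too. Of those, 78.7% were higher with TMM factors alone, 58.7% with total counts, 58.9% with loess offsets and 47.7% with the covariate. Calls also depended on single WT libraries: they were 67 without the first WT Dex library, and 95, 90 and 84 without the first, the second and the third WT control library.

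The leading rises lay beside genes of varied functions. The member with the smallest p, chr6:31345099-31346034, lay between Klf14 and Mkln1, 53.3 kb from Mkln1, which encodes a subunit of a ubiquitin ligase. It measured 3.97, 4.14 and 3.51 CPM in WT control and 33.3, 28.2 and 25.3 in WT Dex, against 4.32, 3.03 and 4.13 in cKO cells without and 7.73, 9.13 and 7.45 with Dex. Both genotypes had Dex values above all their controls, but every WT Dex value exceeded every cKO Dex value. The log2 change was 2.91 ± 0.16 (SE) in WT (adjusted p = 4.66e-22) and 1.09 ± 0.17 (SE) in cKO (adjusted p = 0.000695).

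Klf9 encodes a Krüppel-like repressor that is a classical receptor target. In its desert, the member chr19:23056894-23057202 inside the non-coding gene C330002G04Rik, 84.2 kb from Klf9, measured 0.61, 1.23 and 1.4 CPM in WT control and 11.7, 9.6 and 8.73 in WT Dex. The cKO values were 1.08, 1.62 and 1.35 in control and 1.99, 2.63 and 2.59 in Dex. Here the site was nearly closed without Dex, and the WT Dex libraries stood apart from the other 9. Its log2 change was 3.12 ± 0.24 (SE) in WT and 0.81 ± 0.26 (SE) in cKO, where it was not called (adjusted p = 0.835). The neighbouring member over the C330002G04Rik start, printed above, rose from 1.55 ± 0.684 to 3.76 ± 0.56 CPM (SD, n = 3) in WT.

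Nfkbiz encodes IκBζ, a nuclear cofactor of NF-κB that takes part in Th17 differentiation. In its desert, the member chr16:55582485-55583439 over the Gm45968 start, 228 kb from Nfkbiz, measured 6.94, 8.18 and 9.48 CPM in WT control and 28.5, 30.4 and 26.4 with Dex. In cKO cells it measured 11.3, 8.61 and 11 CPM in control and 12.5, 14.6 and 10.1 with Dex. The WT Dex libraries again lay above all others, and the cKO groups overlapped. The log2 change was 1.77 ± 0.14 (SE) in WT (adjusted p = 1.17e-14) and 0.28 ± 0.14 (SE) in cKO.

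Sgk1, the serum- and glucocorticoid-regulated kinase, flanks a desert with 96 members. Its member chr10:21676448-21677419, 205 kb from Sgk1, measured 4.65, 7.19 and 5.98 CPM in WT control and 24, 23.3 and 19.3 with Dex. In cKO cells it measured 10.4, 8.66 and 7.36 CPM in control and 14.2, 13.9 and 12.3 with Dex. The 4 groups did not overlap, in the order WT control, cKO control, cKO Dex and WT Dex. The log2 change was 1.88 ± 0.15 (SE) in WT (adjusted p = 1.52e-14) and 0.61 ± 0.14 (SE) in cKO (adjusted p = 0.461).

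Tnfaip3 encodes A20, an inhibitor of NF-κB signalling. In its desert, which ends at Olig3, chr10:19184688-19185355 measured 13.6, 17 and 21.4 CPM in WT control and 38.1, 42.1 and 34.9 in WT Dex, and 16.4, 19.3 and 19.7 and 20.9, 23.1 and 21.9 in cKO control and Dex. The WT groups were apart, with a log2 change of 1.13 ± 0.12 (SE), against 0.25 ± 0.12 (SE) in cKO. Another 2 members of that desert rose in WT, chr10:19116798-19117623 by 0.86 and chr10:19185495-19186670 by 0.60 on the log2 scale. The desert of Foxo1 and Cog6 held chr3:52842632-52843831, at 12.5, 9.61 and 9.77 CPM in WT control and 25.8, 25.2 and 20.9 in WT Dex (log2 change 1.19), and the weaker chr3:52472305-52472715 (log2 change 1.82).

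Further rises lay elsewhere. Between Slc7a11, the cystine transporter, and Noct, a circadian phosphatase, chr3:50736959-50737744 measured 6.64, 7.1 and 9.9 CPM in WT control and 24.6, 19.4 and 18.9 in WT Dex. Between Ncoa2, a coactivator of steroid receptors, and Tram1, chr1:13454256-13455167 measured 16.2, 17.2 and 14.8 and 37.3, 36.9 and 31 CPM. Near Chd2, a chromatin remodeller, the member over the Gm30149 start measured 1.83, 1.58 and 2.31 CPM in control and 10.7, 7.53 and 8.62 in Dex. These 3 members had every WT Dex value above every value of the other 9 libraries, with log2 changes of 1.39, 1.12 and 2.21.

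Between Cst3, which encodes the protease inhibitor cystatin C, and Cst10, chr2:149283289-149283661 had the largest rise of all called members, a log2 change of 3.44 ± 0.29 (SE), from 0.305, 0.591 and 0.948 to 7.06, 7.81 and 6.8 CPM. Members beside Max, the partner of Myc (chr12:77056668-77057473), Cited2, a transcriptional coregulator (chr10:17521881-17522441), Ubl3 (chr5:148678408-148678958) and Trim36 (chr18:46047374-46047737) rose by 1.28, 1.82, 1.4 and 2.08 on the log2 scale. The Gm6093 member, whose window holds the palindrome printed above, had a mean of 0.724 ± 0.317 CPM (SD, n = 3) in WT control and 3.42 ± 1.36 in WT Dex, with a log2 change of 2.29 ± 0.36 (SE). In cKO it had 1.46 and 1.93 CPM, and its interaction was not called (adjusted p = 0.314).

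Some called members shared a desert. The 145 lay in 114 deserts, of which 21 held more than 1 and together held 52. Members as a whole were also concentrated, with 61.6% of them in the 250 richest deserts. Whether called members shared deserts more often than other members was not tested. In 17 of the 21 all called members rose, in 2 all fell and in 2 both directions occurred. Members of a desert share their surroundings and are not independent. Clusters of 4 were found in 2 deserts. Beside Mkln1, the members chr6:31132223-31133551, chr6:31321578-31322856 and chr6:31344090-31344502 joined the leading one, with log2 changes of 0.59, 1.01 and 1.56. Beside Sgk1, chr10:21635462-21635807, chr10:21689529-21690090 and chr10:21698556-21699684 joined, with log2 changes of 1.36, 0.75 and 0.50.

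In the Nfkbiz desert, 3 of 49 members rose, at 205, 229 and 261 kb from Zpld1, by 1.26, 0.67 and 1.77 on the log2 scale. The most accessible member of that desert, at 38.7 CPM on average, was not called. Between Slc13a1 and Iqub, 3 of only 7 members rose. The desert before Myc, which begins at A1bg, held 3 that rose, the nearest 77.3 kb from Myc with a log2 change of 1.83. The desert on the other side of Myc held 2, chr15:62734752-62735962 and chr15:62730425-62731054, at over 740 kb from Myc, with log2 changes of 0.66 and 0.51.

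**Figure D2:**
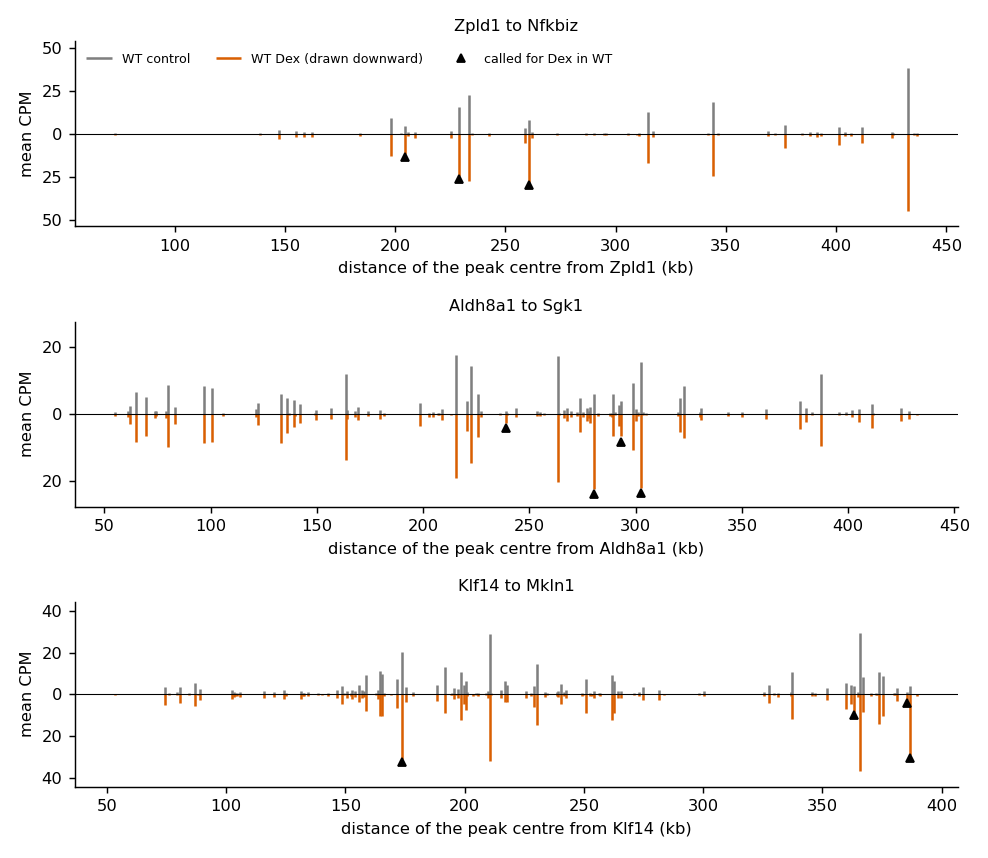
Mean CPM (n = 3) of every member along the deserts beside Nfkbiz, Sgk1 and Mkln1, by distance of the peak centre from the left gene in kb, with WT control drawn upward in grey and WT Dex downward in orange. Triangles mark the 3, 4 and 4 members called for Dex in WT. The bars of the called members are longer downward than upward, and most neighbours are not called.

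Falls were fewer, with a median log2 change of -0.83. The lower member with the smallest p, chr2:18604170-18604756 between Dnajc1 and Commd3, measured 10.1, 10.5 and 11.8 CPM in WT control and 5.67, 6.03 and 6.58 in WT Dex, and 8.64, 7.31 and 9.03 and 12.6, 9.61 and 7.4 in cKO control and Dex. The WT groups were apart and the cKO groups overlapped. The log2 change in WT was -0.83 ± 0.16 (SE) (adjusted p = 0.00192). A cluster of 3 lay between Eef2kmt and Rbfox1, a splicing factor gene of neurons: chr16:5370479-5371592, chr16:5365522-5366455 and chr16:5392798-5394206 changed by -0.68, -0.68 and -0.69. The last of these was the 1 lower call whose WT groups overlapped.

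Among lower calls beside genes of immune cells, chr1:128679729-128680270, 87.7 kb from Cxcr4, the receptor of the chemokine CXCL12, measured 7.32, 10.2 and 9.57 CPM in WT control and 6.18, 4.35 and 5.95 in WT Dex, a log2 change of -0.73 ± 0.17 (SE). Beside Kit, a receptor tyrosine kinase of progenitors and mast cells, chr5:75385872-75386971 changed by -0.62 from 20.5 ± 3.2 CPM (SD, n = 3). Beside Gata3, the factor of Th2 cells, chr2:9662809-9663224 and chr2:9801313-9801920 changed by -0.96 and -0.70, and beside Irf8 chr8:120918709-120919149 changed by -0.88. Other lower members lay between Tbx4 and Brip1 (-1.32), Zfp608 and Gramd3 (-1.18), Serpine2 and Fam124b (-1.57), Kcnt2 and Cdc73 (-1.30) and Mtss1 and Sqle (-0.73).

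By list of flanking genes, calls for Dex in WT were few and were read against the 0.534% called among all tested peaks. Beside the glucocorticoid receptor target genes, 6 of 465 tested members rose and 1 fell (1.51%), 4 of the 6 beside Sgk1 and 2 beside Klf9. The fall was the one beside Cxcr4. The other flanking genes of that list, namely Anxa1, Bcl2l11, Bcl6, Prdm1 and Zfp36l2, had 0 called. Growth and activation genes had 8 higher and 1 lower of 881 (1.02%), 5 of the 8 beside Myc and 1 each beside Btg1, Egr2 and Klf6. The Egr2 member chr10:67430852-67431190 had a log2 change of 1.6 and the Klf6 member chr13:5714094-5715169 one of 0.62.

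T cell identity factors had 6 higher and 2 lower of 1151 (0.695%), with rises in deserts flanked by Foxo1 (2), Ets1, Id2, Lef1 and Zeb2. The Lef1 member chr3:131056932-131057760, 53.0 kb from Lef1, changed by 0.65. The Id2 member chr12:25691108-25691818, 595 kb from Id2, changed by 0.75. In the Zeb2 desert, chr2:48268325-48268675 changed by 1.41, but it lay 3151 kb from Zeb2 and 546 kb from Acvr2a. Deserts beside Th17 genes had 0 called of 229 tested, and trafficking genes had 1 lower of 171. B cell and myeloid genes and developmental factors shared the 1 lower member between Irf8 and Foxf1, of 157 and 184 tested. The median log2 change of a list's tested members lay between -0.06 and 0.04.

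In receptor-deficient cells few members passed the test. The calls were 2 of 19977 (0.00296% of all tested peaks were called), both higher: the Mkln1 member described above and chr2:149283289-149283661 between Cst3 and Cst10. The latter measured 0.66, 0.835 and 0.903 CPM in cKO control and 1.63, 3.7 and 3.17 in cKO Dex, with groups apart and a log2 change of 1.81 ± 0.31 (SE) (adjusted p = 0.01). At an unadjusted p under 0.05 by edgeR there were 1037 of the 19977 tested members, beside 11840 of all 202587 tested peaks. Without the third cKO Dex library the calls were 24, of which 20 were lower, without the second cKO control library they were 0, and without the first or the third cKO control or the second cKO Dex library they were 1.

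Most members that rose in WT also had a positive value in cKO. Of the 118 that rose in WT, 107 (90.7%) had a positive log2 change in cKO (49.5% of all tested peaks did). Their median was 0.25 there beside 1.07 in WT. The 49.5% was not matched to the level of the called members. Over all tested members the median log2 change in cKO was -0.14 under 1 CPM and 0.08 from 10 CPM upwards. Of the 27 that fell in WT, 11 (40.7%) had a positive value in cKO, with a median of -0.05, and this share was not tested. The WT and cKO comparisons share no library. The members were picked by their WT call, which favours a larger value in WT than in cKO.

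**Figure D3:**
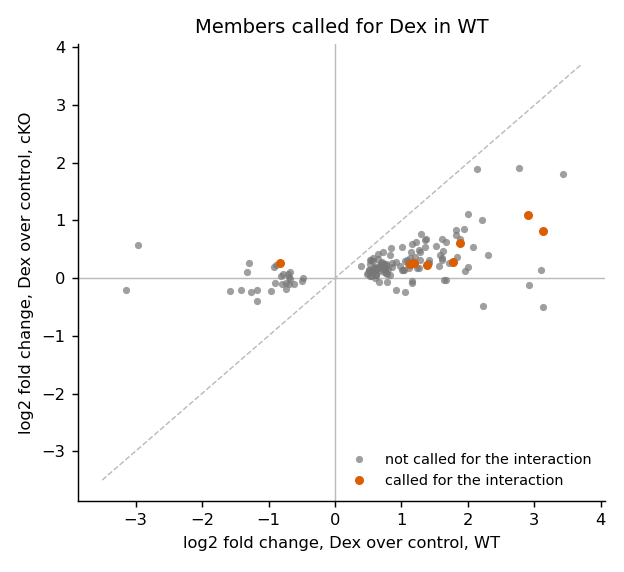
Log2 fold change of Dex over control in WT (horizontal) and in cKO (vertical) for the 145 members called for Dex in WT, with the line of equality dashed and the 8 members called for the interaction in orange. Of the 118 members that rose in WT, 107 lie above 0 in cKO, and the points sit closer to 0 vertically than horizontally.

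The difference itself was tested with an interaction term, the Dex effect in WT minus that in cKO. It was called for 8 of the 19977 tested members (0.040%), against 0.0276% of all tested peaks. Of all tested peaks, 0.0271% were called with the larger value in WT and 0.000494% with the smaller. Of the 8 members, 7 had the larger value in WT and 1 the smaller. They were the leading members beside Mkln1 (1.81 ± 0.23 (SE), adjusted p = 6.63e-06), Klf9 (2.31 ± 0.36 (SE), adjusted p = 0.000458), Nfkbiz (1.50 ± 0.20 (SE), adjusted p = 1.47e-05) and Sgk1 (1.27 ± 0.21 (SE), adjusted p = 0.000816). Those in the deserts of Slc7a11 and Noct, of Tnfaip3 and Olig3 and of Foxo1 and Cog6 had values of 1.16, 0.88 and 0.93. The 1 with the smaller value in WT, at -1.09, was the falling member between Dnajc1 and Commd3. The count was 4 without the first WT Dex library, 5 without the second WT control, the second or the third cKO control or the first cKO Dex library, and 13 without the third cKO Dex library.

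**Figure D4:**
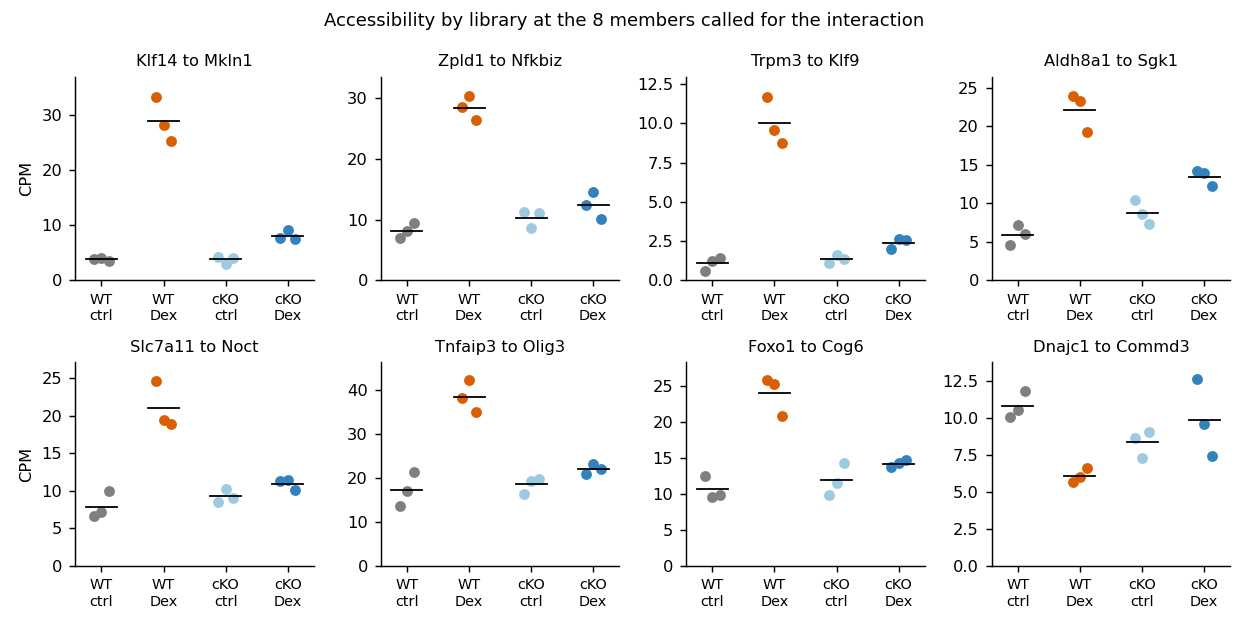
CPM in each of the 12 libraries at the 8 members called for the interaction, 1 panel per desert, with points for libraries and a bar for the mean of each group (n = 3), vertical axes from 0. In 7 panels all 3 WT Dex libraries lie above the other 9, and in the Dnajc1 to Commd3 panel they lie below.

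Genotype was compared within each treatment. Without Dex, 0 members were called (0.0104% of all tested peaks were called). At an unadjusted p under 0.05 by edgeR there were 1177 of the 19977 tested members, beside 15579 of all 202587 tested peaks. DESeq2 called 2 members, and 2 were called without the first WT control library. With Dex, 42 of the 19977 tested members were called (0.210%), against 0.17% of all tested peaks. Of all tested peaks, 0.13% were called lower in cKO and 0.04% higher. Of the 42 members, 38 were lower in cKO and 4 higher. Of the 38, 36 had also risen with Dex in WT, and of the 4, the member between Dnajc1 and Commd3 had fallen. Both comparisons use the WT Dex libraries, so they are not independent. The overlap was not counted over all tested peaks, so whether it is particular to members is not known. The Mkln1 member differed by -1.83 ± 0.14 (SE), the Klf9 member by -2.06 ± 0.21 (SE) and the Nfkbiz member by -1.19 ± 0.13 (SE) on the log2 scale.

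A member between Trim33 and Syt6, chr3:103494065-103494564, measured 10.1, 9.49 and 8.73 CPM in WT Dex and 3.62, 3.53 and 3.8 in cKO Dex, with no overlap. The other 3 members higher in cKO lay between Rasgef1b and Vamp9, between Ptger2 and Txndc16 and in the Myc to Gsdmc desert. The 2 lower members without a Dex call in WT lay between Pex2 and 1700008P02Rik and between Map1b and Cartpt. The split moved with the scaling. It was 55 higher and 41 lower with total counts and 146 and 40 with the share of the most accessible peaks as a covariate. With loess offsets it was 52 and 57, with lower calls still in the majority. Of the calls over all tested peaks, 23.5% were higher in cKO with TMM factors alone. That share was 56.4% with total counts, 68.0% with the covariate and 53.3% with loess offsets. Same-numbered WT Dex and cKO Dex libraries deviated together (r from 0.127 to 0.197), and with the replicate number as a block the calls were 95, 28 higher and 67 lower. The calls were 18 without the first WT Dex library, 25 without the second and 26 without the first cKO Dex library.

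Summing the members of each desert gave 1 value per desert and library, and 1544 deserts were tested. With Dex in WT, 54 deserts were called (3.5%), 47 higher and 7 lower, and 15 of the 54 held no called member. The members between Trpm3 and Klf9 summed to 4.12, 6.16 and 6.23 CPM in WT control and 19.98, 17.8 and 18 in WT Dex, and to 4.5, 5.69 and 5.42 and 5.86, 7.41 and 8.13 in cKO control and Dex. The WT Dex sums stood apart, with a log2 change of 1.73 ± 0.16 (SE) in WT and 0.45 ± 0.17 (SE) in cKO. The desert of Nfkbiz, with 49 members, summed to 171, 180.4 and 179 CPM in WT control and 266, 277 and 232 in WT Dex, a log2 change of 0.55 ± 0.07 (SE) (adjusted p = 6.19e-07).

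Other deserts whose sum rose were those of Cst3 and Cst10 (1.98), Slc13a1 and Iqub (1.03), Kcnn2 and Trim36 (0.99), Immp2l and Dnajb9 (0.59) and Ncoa2 and Tram1 (0.53). The desert of Sgk1, with 96 members, changed by 0.24 (adjusted p = 0.0207). The sum of the 52 members between Eef2kmt and Rbfox1, of which 3 were called lower, fell from 136, 135 and 133 CPM in WT control to 102, 106 and 101 in WT Dex, a log2 change of -0.38 ± 0.07 (SE). In cKO 2 deserts were called (0.13%), those between Immp2l and Dnajb9 and between Vmn2r99 and Vmn2r100 (adjusted p = 0.0484 each by edgeR). They were no longer called under 12 and 11 of 16 alternative settings. The interaction was called for 4 deserts (0.259%), those of Klf9, Cst3, Trim36 and Iqub. It was lost for the Cst3 desert under 7 of 16 alternative settings. Between genotypes, 0 deserts were called in control, with 103 of the 1544 tested at an unadjusted p under 0.05 by edgeR. With Dex 16 were called (1.04%), 13 of them lower in cKO. Under total counts the Dex calls in WT were 45 higher and 43 lower, with the covariate 49 and 48, and the count was 22 without the first WT Dex library, 31 without the second, and 35, 29 and 31 without the first, the second and the third WT control library.

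The last comparison asked whether the members as a whole took more or less of the signal. In WT cells they held 6.13% ± 0.0501 (SD, n = 3) of counts without and 6.06% ± 0.0791 with Dex. In cKO cells they held 6.35% ± 0.0154 without and 6.28% ± 0.0329 with Dex. All 6 cKO libraries exceeded all 6 WT libraries. The difference between genotypes was 0.215 percentage points (exact permutation test within treatment, two-sided, p = 0.005, the smallest it can give). With Dex the share changed by -0.0747 percentage points on average over genotypes (exact permutation test, p = 0.03), with overlap between the WT groups. That p was 0.05 to 0.08 when the first or the third WT control, the first or the second WT Dex or the second or the third cKO control library was left out.

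Narrow peaks deep inside genes had group shares in the same order. They held 19.4% of WT counts without and 19% with Dex, and 20.2% and 19.9% of cKO counts. Relative to them, members differed by -0.01 on the log2 scale between genotypes (exact permutation test, p = 0.055) and by 0.01 with Dex (p = 0.16). The genotype p of that test was 0.02 to 0.045 without the third WT control, the second cKO control or the first cKO Dex library. Without any other single library it was 0.06 to 0.125, and for members over 100 kb from genes it was 0.18. The share of counts in the most accessible 10% of peaks was lower in cKO, as given above. Its part in these differences was not tested.

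**Figure D5:**
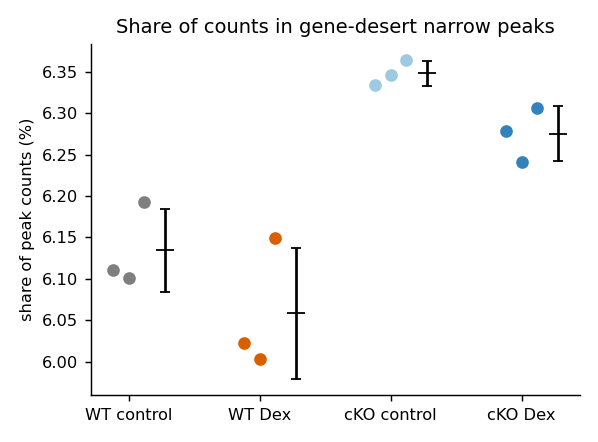
Share of each library's peak counts that fell in the 22319 members, 1 point per library, with the group mean and SD (n = 3) in black; the vertical axis does not start at 0. The 6 cKO libraries lie between 6.24% and 6.36% and the 6 WT libraries between 6.003% and 6.192%.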

How the data were processed

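Per the labels, 6000 sorted cells per library were tagmented and amplified for 16 PCR cycles. The values are raw counts of reads per peak, deposited by the authors for 1 joint peak set, and were whole numbers with no scaling. Per the submitters' processing notes, the build was mm10, and featureCounts 2.1.1, Genrich 0.6.1, Bowtie2 2.3.5, Trimmomatic 0.39, SAMtools 1.3, Picard 2.18.27 and deepTools 3.5.6 were used. No source used here gives their roles or settings. Each library had 1 count column, matched by its name.

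Distances, flanking genes and non-coding genes came from a RefSeq gene table of GRCm38.p6 (21896 protein-coding genes), the same build as mm10. Promoter windows and their strands are RefSeq's. All 202587 peaks that passed filterByExpr (minimum count 10, minimum total 15, by group) were fitted together in edgeR 4.0.16 (R 4.3.3) with TMM factors, 1 coefficient per group, 8 residual degrees of freedom and the robust quasi-likelihood F-test. The Benjamini-Hochberg adjustment covered every tested peak. CPM are counts per 1000000 of the TMM-scaled library. Desert sums used the same scaling and were adjusted over deserts. Reads carried no molecular identifiers, so counting precision is not that of independent molecules. DESeq2 1.42.0, loess offsets and the other settings given in the closing section were alternatives. The code was tested on simulated counts.

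Named members were the 15 higher and 10 lower members with the smallest p for Dex in WT, up to 10 called in each other comparison, the 10 with the highest CPM, and up to 5 called members per list of flanking genes. Other called members of the deserts described, and those over promoter windows, were chosen after their values were seen. The members and lists were chosen with earlier results of these data known.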

Additional observations from a re-analysis of the deposited data

Results flagged for a closer look

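The Dex effect differed between WT and cKO cells, by the interaction term of edgeR's quasi-likelihood test, at 8 gene-desert narrow peaks and in the summed signal of 4 deserts. The differences are WT minus cKO on the log2 scale. At single peaks they were 2.31 beside Klf9, 1.81 between Klf14 and Mkln1, 1.50 beside Nfkbiz, 1.27 beside Sgk1 and 1.16 between Slc7a11 and Noct. They were 0.93 in the Foxo1 to Cog6 desert and 0.88 in the Tnfaip3 to Olig3 desert. The peak between Dnajc1 and Commd3 had a difference of -1.09, with a fall in WT and overlapping groups in cKO. For the desert sums they were 1.31 between Cst3 and Cst10, 1.28 between Trpm3 and Klf9, 0.85 between Slc13a1 and Iqub and 0.70 between Kcnn2 and Trim36.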

How the results depend on the processing

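Of the 75 named member results, 0 of those called changed direction under the alternatives, and 47 of the 75 kept their side of the threshold under every one. The Dex change in WT, close to 0 and not called, changed sign under some alternatives for the strong members beside Ets1 (0.01, lowest -0.10), Foxo1 (0.03, lowest -0.09), Hephl1 (0.07, lowest -0.08), Cd47 (0.00, lowest -0.11) and Cops8 (0.06, lowest -0.04). The interaction was lost most often for the Foxo1 to Cog6 and Dnajc1 to Commd3 members (10 of 20 alternatives each), then for Tnfaip3 to Olig3 (7) and Slc7a11 to Noct (1). For desert sums it was lost under 7 of 16 alternatives for Cst3 to Cst10. The losses were 2 for Kcnn2 to Trim36, 1 for Slc13a1 to Iqub and 0 for Trpm3 to Klf9. The causes of the shifts below were not tested. Members called for Dex in WT numbered 257 with loess offsets, 232 with a minimum count of 20, 255 with the concentration covariate, 222 with only the groups compared and 80 beyond 100 kb from genes, where fewer members count. Leaving out 1 library gave 67 to 178. For Dex in cKO the counts were 1 with only the groups compared and 1 beyond 100 kb, and 0 to 24 without 1 library. For the interaction they were 22 with loess offsets, 18 with the minimum count of 20, 25 with the covariate and 5 beyond 100 kb, and 4 to 13 without 1 library. For genotype in control they were 1 with loess offsets, with the minimum count of 20 and with the covariate, 2 with only the groups compared and 2 by DESeq2, and 0 to 2 without 1 library. For genotype in Dex they were 96 with total counts, 109 with loess offsets, 100 with the minimum count of 20, 186 with the covariate and 24 beyond 100 kb, and 18 to 48 without 1 library. Deserts called for Dex in WT numbered 88 with total counts, 97 with the covariate and 107 with only the groups compared, and 22 to 66 without 1 library; loess offsets were not run for deserts. Total counts moved the median log2 change of all tested peaks by -0.05 for Dex in WT.

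With the replicate number as a block, members called numbered 212 for Dex in WT, 11 for the interaction, 2 for genotype in control and 95 for genotype in Dex, and deserts called for Dex in WT 86. Same-numbered libraries correlated from -0.0912 to 0.282, above 0.1 in 11 of 18 pairs, and 9 of 12 libraries correlated best with their own number over 20000 peaks, a hint from the data and not from the design. Since not every pair exceeded 0.1, the numbers were not taken to pair the samples over the 4 groups. The 3 pairs of WT Dex with cKO Dex did exceed it. For the share of counts in members, the Dex effect was -0.0827 (exact permutation p = 0.07) with lengths under 1000 bases, and -0.0974 to -0.0603 without 1 library. The genotype effect was 0.201 to 0.238 without 1 library. For the log2 ratio to narrow peaks deep in genes, the genotype effect was -0.0174 (exact permutation p = 0.03) with lengths under 1000 bases and -0.0135 with the replicate block (p = 0.03125), and -0.0177 to -0.0103 without 1 library, and the Dex effect 0.00481 to 0.0121. Most members lie near 1 CPM, where few calls were made, and how large a difference could be detected there was not tested.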

Other observations

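Beside Icos, the gene of a costimulatory receptor of activated T cells, 2 of the 50 members of the desert that runs to Pard3b rose with Dex in WT cells. The member chr1:61054065-61055469, 54.4 kb from Icos, measured 46.1, 51.3 and 51.8 CPM in WT control and 70.9, 65.6 and 60.3 in WT Dex. Its groups did not overlap, and its log2 change was 0.40 ± 0.10 (SE; adjusted p = 0.0425 by edgeR's quasi-likelihood test), the smallest size among the members that rose. Farther out, chr1:61423195-61423708 measured 8.62, 7.44 and 8.99 CPM in WT control and 14.3, 12.8 and 11.1 in WT Dex. Both members were chosen after their values were seen.

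In the antigen receptor loci, 2 of 385 tested members rose with Dex in WT. In the Tcrb locus, which encodes the beta chain of the T cell receptor, chr6:41202928-41203485 measured 1.75, 1.87 and 2.14 CPM in WT control and 4.66, 3.85 and 4.48 in WT Dex. In the Igh locus, chr12:114133904-114134303 measured 2.14, 2.17 and 1.32 CPM in WT control and 4.29, 4.02 and 3.63 in WT Dex. The WT groups were apart at both.

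Density also differed between chromosomes, from 16.8 members per Mb of allowed sequence on chromosome 4 to 43.6 on chromosome 13. A long desert without any member was that between Klhl29 and Apob (2602 kb from gene to gene).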
